A study of Mus musculus with 5 samples.

Results

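The genes described here encode the actin cytoskeleton of the cell and the proteins that drive its movement: actins, thymosins, the Arp2/3 complex, nucleators, capping and cross-linking proteins, myosins and signalling proteins, with the intermediate filament gene Vim. They are 50 named genes of the 34240 features in the deposited table. Of these, 49 were found under their own symbol and Myl12a under the older symbol 2900073G15Rik. The genes were picked by function, but the AML and normal values of these same libraries were known when the list was made, and no threshold on a value was given. Their differences between AML and normal cells are therefore a description. Members are marked below as called or not by a threshold on p, but no p-value of a member is printed. Those calls are part of the description and are no test of the list.

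RNA of sorted cells from BALB/c mice, aged 10 to 12 months per the labels, was sequenced in 5 libraries. The 3 normal libraries came from bone marrow cells carrying Gr1 and Mac1, the surface antigens of granulocytes and other myeloid cells. The 2 libraries of acute myeloid leukaemia (AML) came from cells sorted for Mac, Gr1 and B220, and their labels name bone marrow and spleen. CNTRL-FGFR1, which induced the disease, is a fusion of a centrosomal protein with a receptor tyrosine kinase. Spleen and the B220 sort occur in the AML group alone, so neither can be told apart from the disease. The labels do not say which promoter drives the fusion, how many clones there are or which animals stand behind a library, so the spread between libraries may be technical.

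Actin exists as monomers and as filaments. Profilin and thymosins hold the monomers, the Arp2/3 complex and formins start new filaments, cappers and cofilin end or sever them, and tropomyosins, plastin and filamins stabilise or bundle them. Neutrophils and other myeloid cells are rich in these proteins, which they use to crawl, to squeeze through vessel walls and to engulf particles.

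Values were read as RPKM, reads scaled by transcript length and by the number of mapped reads, although no unit is named. On that reading levels can be compared between genes, but only roughly, since trends on transcript length differed between libraries. Fold differences are ratios of mean RPKM, and log2 fold changes with their standard errors (SE) come from a fit of log2(RPKM + 1) across all tested genes with limma, which understates the change of low genes. A gene is called where its Benjamini-Hochberg adjusted p, over all 10166 tested genes, is under 0.05. In bulk RNA, fewer cells of a type and less RNA per cell cannot be told apart.

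The labelled cell type was checked against marker lists. All 8 myeloid and neutrophil markers were present in every library, but Itgam, Ly6g, Csf3r and Ltf were called lower in AML cells, by 2.33-fold, 2.31-fold, 2.50-fold and 2.61-fold. S100a8, S100a9, Camp and Cd177 were not called. The summed level of 5 granulocyte progenitor markers was 299 to 446 RPKM in normal and 10331 and 11330 RPKM in AML cells. Summed monocyte markers (8 genes) ran from 388 to 591 RPKM in normal and stood at 31.6 and 34.3 RPKM in AML cells, with 7 of the 8 called lower. Erythroid markers (7 of 8 listed were found) summed to 1531, 974 and 101 RPKM across normal libraries 1 to 3, against 117 and 127 RPKM in the AML libraries. The 7 eosinophil and basophil markers summed to 737, 763 and 15.01 RPKM in the normal and 115 and 234 RPKM in the AML libraries, so normal library 3 stood apart in both lists. Megakaryocyte and platelet markers (8 genes) summed to 8.14 to 27.1 RPKM in normal and 7.10 and 9.15 RPKM in AML cells, with Vwf listed at 0 in both AML libraries. Gp9 was the only called gene of that list and was higher in AML cells. It stood at 0.96, 0.96 and 0.55 RPKM in normal and 2.07 and 2.30 RPKM in AML cells, and its call was lost without normal library 2. B lineage markers (8 genes) summed to 10.2 to 17.2 RPKM over all 5 libraries. T lineage markers (8 genes) summed to 42.1 to 48.4 RPKM in normal and 340.0 and 338 RPKM in AML cells, but they did not move together. Cd3e and Cd3g made up nearly all of the AML sum and were called higher. Cd3d made up most of the normal sum and was called lower, at 42.0, 45.5 and 38.4 RPKM in normal and 16.5 and 17.2 RPKM in AML cells. The other 5 genes were under 1 RPKM in every library, with Cd8a listed at 0 in both AML libraries. The 8 stromal and endothelial markers summed to 18.2 to 43.3 RPKM and to 5.98 and 5.99 RPKM, with 5 of the 8 listed at 0 in both AML libraries. The part of these other cells in the differences below was not tested.

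Of the 50 genes 45 had a lower mean in AML than in normal cells. In 31 of them both AML libraries lay below all 3 normal libraries, and in 1, Tpm1, both lay above. The limma fit called 18 lower and 0 higher in AML cells, and 1 (Tpm1) was higher and 28 were lower at an unadjusted p under 0.05, beside 26.5% and 17.4% of all tested genes. Across all 10166 tested genes 11.8% were called lower and 19.3% higher, and 22.1% had both AML libraries below and 34.8% both above the normal ones. Since the list was made with this contrast known, nothing is read from these shares. The median log2 fold change was -0.84 over the 50 genes and 0.12 over all tested genes. Together the 50 genes held 3.98%, 3.36% and 3.27% of all RPKM across normal libraries 1 to 3, against 2.71% and 1.81% in AML libraries 1 and 2. Those shares do not overlap between the groups.

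The calls rested on few libraries. Of the 18 calls 12 were kept without AML library 1, 6 without normal library 1, 4 without normal library 2 and 2 without AML library 2, while all 18 were kept without normal library 3, where 28 genes were called lower. Only Tpm4 and Capg were called in each of these fits. With no filter on low values 7 of the 18 calls were kept. Over all tested genes 1196 were called lower and 1959 higher with every library in the fit. These counts were 797 and 1139 without normal library 1 and 640 and 955 without normal library 2. They rose to 2142 and 2757 without normal library 3, fell without AML library 1 or 2 and were 1076 and 1788 with no filter. Whether member calls were lost more often than those of other genes was not tested.

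**Figure D1:**
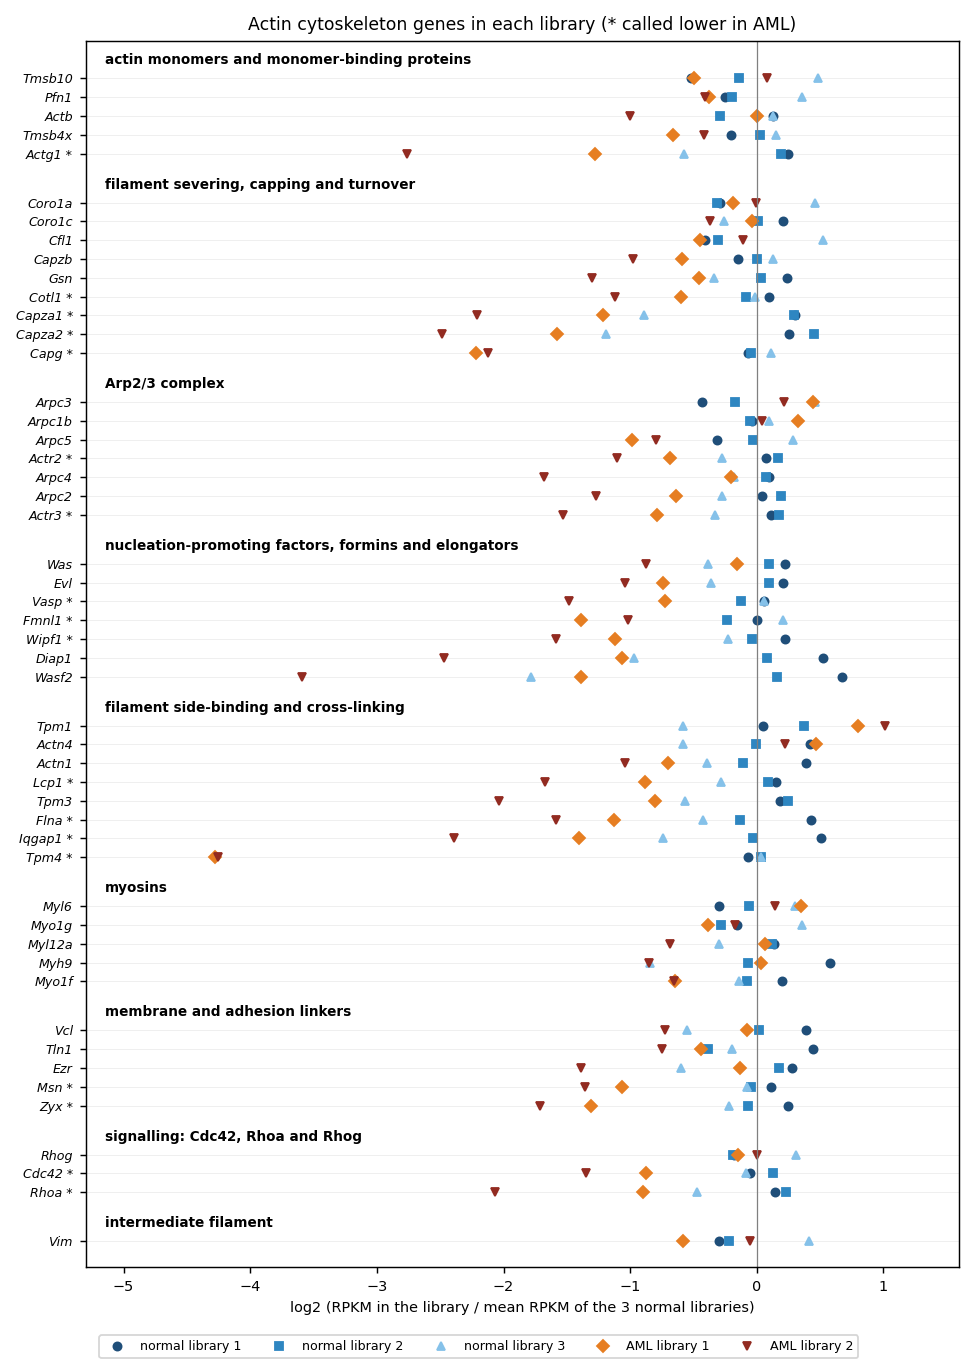
Level of each of the 50 genes in each library, as log2 of RPKM over the mean RPKM of the 3 normal libraries (horizontal axis), grouped by role and ordered by log2 fold change within a role. Each point is 1 library, and an asterisk marks the 18 genes called lower. Tpm4 stands farthest to the left, with both AML libraries together, and AML library 2 lies left of AML library 1 for 38 genes.

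Among the actin monomer genes, the gamma-actin gene was the one called lower, while the beta-actin gene overlapped between the groups. Actb (chromosome 5, 143664794 to 143668433, mm9) and Actg1 (chromosome 11, 120207004 to 120209856) encode the cytoplasmic beta and gamma actins of nearly all cells. Their coding sequences have the same length of 1128 bases and differ at 128 positions in the reference transcripts, an identity of 88.7%. The first 60 coding bases are shown because the 2 proteins differ mainly at their start. Capitals mark the 9 bases that differ between the genes.
Actb: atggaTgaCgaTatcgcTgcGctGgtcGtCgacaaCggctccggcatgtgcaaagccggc
Actg1: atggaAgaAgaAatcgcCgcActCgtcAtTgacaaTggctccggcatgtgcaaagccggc

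Actb had the highest level of the 50 genes in both groups, at 3506, 2622 and 3503 RPKM across normal libraries 1 to 3, against 3213 and 1602 RPKM in AML libraries 1 and 2. AML library 1 fell within the normal range and AML library 2 below it, so the mean was 1.33-fold lower with a log2 fold change of -0.49 (SE 0.39), which was not called. Without AML library 2 the sign of this difference turned. Actg1 stood at 501, 482 and 284 RPKM in normal and 174 and 62.2 RPKM in AML cells, with no overlap. Its mean was 3.57-fold lower (log2 fold change -1.96, SE 0.48). The call of Actg1 did not hold without AML library 2, normal library 1 or normal library 2. The Actg1 level was 14.3%, 18.4% and 8.12% of that of Actb across normal libraries 1 to 3, against 5.43% and 3.88% in the AML libraries. Reads of stretches shared by the 2 genes and by their processed copies can be split between them.

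None of the 3 monomer-binding genes was called. Tmsb4x, whose product thymosin beta 4 holds actin monomers in reserve, stood at 1515, 1778 and 1943 RPKM in normal and 1101 and 1307 RPKM in AML cells, without overlap and 1.45-fold lower on average (log2 fold change -0.53, SE 0.28). Its close relative Tmsb10 ranged from 35.8 to 71.7 RPKM over all 5 libraries and overlapped. Pfn1, encoding profilin, which loads monomers onto growing ends, had the second highest level, 2100 ± 516 (SD, n = 3) RPKM in normal and 1603 ± 24.7 (SD, n = 2) RPKM in AML cells. The Pfn1 groups did not overlap, and its log2 fold change of -0.36 (SE 0.31) was not called. The coding sequences of Tmsb4x and Tmsb10 hold 153 and 135 bases in the longest reference transcripts.

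Among 9 genes for severing, capping and turnover of filaments, 4 were called lower: Capg, Capza2, Capza1 and Cotl1. Capg (chromosome 6, 72494385 to 72512977), a macrophage capping protein of the gelsolin family, stood at 172.5, 175 and 195 RPKM in normal and 39.0 and 41.6 RPKM in AML cells. Libraries of a group lay close together, the groups were far apart, and the mean was 4.49-fold lower (log2 fold change -2.14, SE 0.22). Capza1 and Capza2 encode the alternative alpha subunits of the capping protein that closes filament ends. Capza2 stood at 112, 129 and 41.1 RPKM in normal and 31.5 and 16.8 RPKM in AML cells. Normal library 3 lay close to AML library 1, and the mean was 3.89-fold lower (log2 fold change -1.82, SE 0.53). Without normal library 1, normal library 2 or either AML library it was not called. Capza1 was 3.09-fold lower, again with normal library 3 the lowest of its group, and its call was lost without the same libraries. Capzb, the beta subunit shared by both forms, was 1.71-fold lower and not called, with no overlap between the groups. The coding sequences of Capza1 and Capza2 are 76.9% identical.

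Cofilin and the coronins overlapped between the groups. Cfl1, the main filament-severing protein cofilin 1, stood at 759, 815 and 1446 RPKM in normal and 739 and 935 RPKM in AML cells. Normal library 3 was the highest, and without it the sign of the log2 fold change (-0.21, SE 0.36) turned. Coro1a, the coronin of blood cells, had means of 747 ± 245 (SD, n = 3) RPKM and 699.8 ± 62.7 (SD, n = 2) RPKM. Coro1c ranged from 20.5 to 30.7 RPKM over the 5 libraries. Cotl1, a coactosin-like filament-binding protein, was 1.78-fold lower without overlap, and its call was lost without any one library other than normal library 3. Gsn, the severing protein gelsolin, was 1.76-fold lower without overlap and was not called.

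The 7 subunit genes of the Arp2/3 complex, which starts branches on existing filaments, did not move as 1 block. Actr2 and Actr3, which encode the actin-related proteins at the core of the complex, were called lower. Arpc2, Arpc4 and Arpc5 had both AML libraries below the normal ones without being called, and Arpc1b and Arpc3 overlapped with higher means in AML cells. Actr3 (chromosome 1, 127289483 to 127332067) stood at 329, 344 and 242 RPKM in normal and 177 and 106 RPKM in AML cells, 2.16-fold lower (log2 fold change -1.13, SE 0.32). Actr2 was 1.84-fold lower (log2 fold change -0.88, SE 0.27). Calls did not hold without AML library 2, normal library 1 or normal library 2 for both genes, and also without AML library 1 for Actr2.

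Arpc2, a subunit that holds the complex together, stood at 735, 815 and 588 RPKM in normal and 459 and 296 RPKM in AML cells, without overlap. Arpc3 ran the other way, at 407, 486 and 753 RPKM in normal and 747 and 638 RPKM in AML cells. Normal library 3 was level with AML library 1 for Arpc3, so the 1.26-fold higher mean lies within the spread of the normal group. The Arpc3 level was 0.554, 0.596 and 1.28 times that of Arpc2 across normal libraries 1 to 3, against 1.63 and 2.16 times in the AML libraries. The highest subunit exceeded the lowest, Arpc4, by 6.95 to 8.59 times in normal cells, by 8.68 times in AML library 1 and by 20.6 times in AML library 2. Arpc4 itself stood at 86.0 and 31.0 RPKM in the 2 AML libraries against 87.6 to 106 RPKM in normal cells. The direction of Arpc1b turned under quantile normalization and with S100a8 and S100a9 left out of the scaling, and that of Arpc3 with length and GC trends removed.

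**Figure D2:**
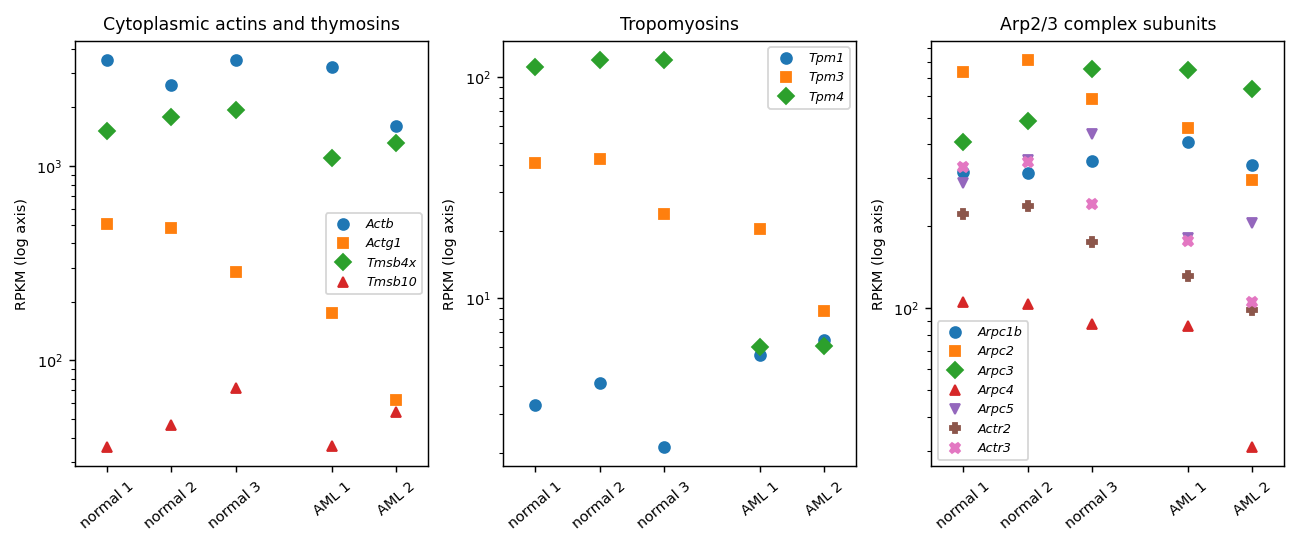
RPKM (log axis) of the cytoplasmic actins and thymosins, the tropomyosins and the 7 Arp2/3 subunits in each of the 5 libraries, 1 point per gene and library. Actg1, Tpm4 and most Arp2/3 subunits sit lower in the AML libraries, Tpm1 sits higher, and Actb, Tmsb10, Arpc1b and Arpc3 overlap between the groups.

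Genes that switch nucleation on or drive filament elongation were lower on average in AML cells in 7 of 7 cases, and 3 were called: Wipf1, Fmnl1 and Vasp. Vasp (chromosome 7, 19842278 to 19857166), which speeds elongation at the leading edge, stood at 254, 224 and 254 RPKM in normal and 147 and 87.2 RPKM in AML cells, 2.08-fold lower (log2 fold change -1.10, SE 0.29). Wipf1, the partner that stabilises the Wiskott-Aldrich protein, was 2.52-fold lower, and Fmnl1, a formin of blood cells, 2.28-fold lower. The groups overlapped in none of these 3 genes. Calls were lost without AML library 2 for all 3, without normal library 2 also for Vasp and Fmnl1, without normal library 1 also for Vasp, and without AML library 1 also for Fmnl1.

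Wasf2, the WAVE2 protein that turns Rac signals into Arp2/3 activity, varied most within groups. It stood at 72.8, 51.2 and 13.3 RPKM in normal and 17.5 and 3.8 RPKM in AML cells. Normal library 3 lay below AML library 1, so the groups overlapped although the mean was 4.30-fold lower (log2 fold change -2.01, SE 0.80). Diap1, a formin, stood at 91.4, 67.3 and 32.5 RPKM in normal and 30.5 and 11.5 RPKM in AML cells. Normal library 3 and AML library 1 lay close together without overlap, and the 3.03-fold lower mean was not called (log2 fold change -1.59, SE 0.54). Was, the Wiskott-Aldrich protein itself, overlapped between the groups at 83.4 ± 17.5 (SD, n = 3) RPKM and 60.3 ± 20.8 (SD, n = 2) RPKM. Evl, a relative of Vasp, was low throughout, at 3.0 to 7.1 RPKM, with both AML libraries below the normal ones.

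The largest difference of the list was in a tropomyosin. Tpm4 (chromosome 8, 74658874 to 74677041) stood at 110.8, 119 and 119 RPKM in normal and 6.0 and 6.1 RPKM in AML cells, 19.2-fold lower (log2 fold change -4.05, SE 0.21). The libraries of each group were nearly level, and no other member showed so wide a gap. Tropomyosins run along the side of filaments and set which other proteins can bind. Tpm3 was 2.45-fold lower, at 24.1 to 42.4 RPKM in normal and 20.5 and 8.7 RPKM in AML cells, and was not called. Tpm1 was low but higher in AML cells, at 3.30, 4.13 and 2.12 RPKM against 5.55 and 6.43 RPKM, a 1.88-fold higher mean without overlap (log2 fold change 0.77, SE 0.27), also not called. Of the summed level of the 4 tropomyosin genes, Tpm4 held 71.6%, 71.8% and 81.9% across normal libraries 1 to 3, against 18.7% and 28.7% in AML libraries 1 and 2. The sum itself was 145 to 166 RPKM in normal and 32.1 and 21.2 RPKM in AML cells. Tpm2 did not exceed 0.121% of that sum in any library.

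Cross-linkers were mostly lower. Lcp1 (chromosome 14, 75530908 to 75630649), the L-plastin that bundles filaments in white blood cells, stood at 1003, 957 and 743 RPKM in normal and 488 and 283 RPKM in AML cells, 2.34-fold lower (log2 fold change -1.26, SE 0.33). Iqgap1, a scaffold that ties filaments to Cdc42 and Rac, stood at 230, 159 and 96.9 RPKM in normal and 61.2 and 30.8 RPKM in AML cells, 3.52-fold lower (log2 fold change -1.79, SE 0.44). The groups did not overlap for either gene, and neither call held without AML library 2, normal library 1 or normal library 2. Flna, filamin A, which joins filaments at wide angles, was 2.53-fold lower, with its call lost without any one library other than normal library 3. The alpha-actinin genes differed from each other. Actn1 was 1.82-fold lower without overlap, and Actn4 overlapped at 37.8 to 75.5 RPKM in normal and 78.1 and 65.9 RPKM in AML cells.

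None of the 5 myosin genes was called. Myh9, the heavy chain of non-muscle myosin 2A, stood at 424, 271 and 158 RPKM in normal and 290.4 and 158 RPKM in AML cells, so both AML libraries fell inside or at the edge of the normal range. The sign of its log2 fold change (-0.30, SE 0.47) turned without normal library 1 or AML library 2. Its light chain Myl6 stood at 262, 309 and 399 RPKM in normal and 413 and 357 RPKM in AML cells, with overlap. Myo1f, an unconventional myosin of neutrophils, stood at 218, 179 and 172 RPKM in normal and 121.0 and 120.7 RPKM in AML cells, without overlap and 1.57-fold lower (log2 fold change -0.64, SE 0.24). Myo1g ranged from 51.4 to 86.1 RPKM and overlapped. Myl12a, a regulatory light chain, overlapped at 119 ± 19.1 (SD, n = 3) RPKM and 99.4 ± 35.9 (SD, n = 2) RPKM. Its coding sequence is 96.5% identical to that of Myl12b, so reads can be split between the 2 genes.

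Of 5 genes that link filaments to the membrane and to adhesion sites, Zyx and Msn were called lower. Zyx (chromosome 6, 42299827 to 42310145), zyxin of adhesion sites, stood at 355, 285 and 257 RPKM in normal and 121 and 91.1 RPKM in AML cells, 2.83-fold lower (log2 fold change -1.49, SE 0.27). Msn (chromosome X, 93291381 to 93363891), moesin, the main membrane linker of leukocytes, stood at 396, 354 and 348 RPKM in normal and 175 and 143 RPKM in AML cells, 2.30-fold lower (log2 fold change -1.202, SE 0.24). Both gaps exceeded the spread within either group. The call of Zyx was lost without AML library 2, and that of Msn without AML library 2 or normal library 2. Ezr, the related ezrin, overlapped at 46.9 ± 13.9 (SD, n = 3) RPKM and 30.3 ± 17.5 (SD, n = 2) RPKM. Tln1, talin, which activates integrins, was 1.503-fold lower without overlap and not called, and Vcl, vinculin, overlapped at 65.7 to 126 RPKM and 58.2 and 91.5 RPKM.

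Of the 3 genes that signal to the cytoskeleton, Cdc42, Rhoa and Rhog, the first pair was called lower and Rhog overlapped between the groups. Cdc42, which sets cell polarity, stood at 382, 434 and 374 RPKM in normal and 216 and 156 RPKM in AML cells, 2.13-fold lower (log2 fold change -1.10, SE 0.26). Rhoa, which drives contraction, stood at 249.5, 265 and 163 RPKM in normal and 121 and 53.8 RPKM in AML cells, 2.58-fold lower (log2 fold change -1.44, SE 0.40). Neither overlapped, and neither call held without AML library 2, normal library 1 or normal library 2. Rhog stood at 285, 283 and 402 RPKM in normal and 292 and 323 RPKM in AML cells, and its log2 fold change of -0.05 (SE 0.27) turned sign without normal library 3 or AML library 1. Vim, which encodes the intermediate filament protein vimentin and not an actin protein, stood at 499, 527 and 816 RPKM in normal and 409.7 and 591 RPKM in AML cells, with overlap.

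The differences varied with properties of the transcript, and so did differences between libraries of the same group. Over the 50 genes, Spearman's rank correlation of the AML against normal log2 fold change was -0.28 with transcript length, -0.37 with the length of the 3′ untranslated region and 0.32 with GC content. Over 9876 tested genes with a known transcript these values were -0.29, -0.31 and 0.24. For normal library 3 against the mean of normal libraries 1 and 2 the correlation with the 3′ untranslated region was -0.59 over the 50 genes and -0.37 over the 9876. For AML library 2 against AML library 1 it was -0.52 and -0.38. All genes of a comparison share the same libraries, so these values carry no p. The 25 genes with a 3′ untranslated region over 968.5 bases, the median of the list, had a median log2 fold change of -1.13 and 13 calls. The other 25 had a median of -0.53 and 5 calls. All tested genes split at the same length had medians of -0.11 and 0.36, with 15.1% and 8.24% called lower, so the medians and shares of calls differed in the same direction there. Between normal library 3 and the other normal libraries the medians of the members' sets were -0.47 and 0.20, and those of all tested genes -0.24 and 0.14.

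AML library 2 lay below AML library 1 for 38 of the 50 genes, against 59.3% of all tested genes. Normal library 3 lay below both other normal libraries for 30 of the 50, against 47.4% of all tested genes. With the trends of each library on transcript length and GC content removed, an alternative chosen after the data had been seen, the median of the 50 genes was -0.999. In that fit 31 genes were called lower, all 18 earlier calls among them, against 16.2% of all genes. Arpc3 and Myl6 turned sign there, and Tmsb4x, Tmsb10, Pfn1 and Rhog were among those called lower only in that fit.

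**Figure D3:**
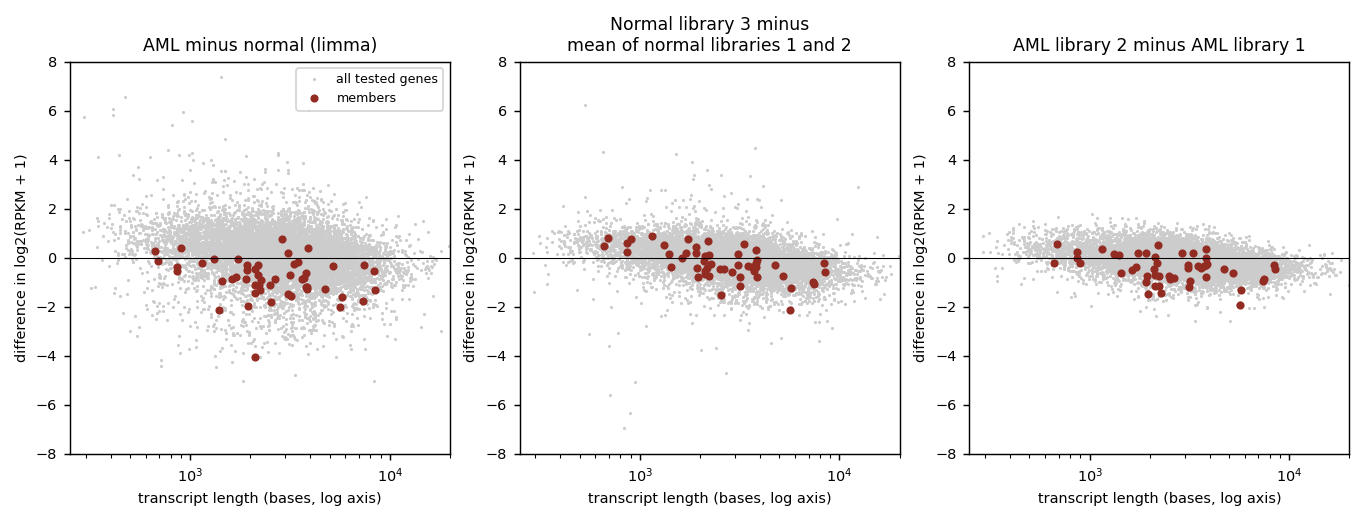
Differences in log2(RPKM + 1) against transcript length (log axis) for all tested genes with a known transcript (grey) and the 50 members (red), for AML minus normal, for normal library 3 minus the mean of normal libraries 1 and 2, and for AML library 2 minus AML library 1. In each panel the cloud of genes falls towards longer transcripts, with Spearman correlations of -0.29, -0.46 and -0.38 over 9876 genes.

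Actin genes are known targets of SRF, a transcription factor that binds the CArG box and whose cofactors sense free actin monomers. RefSeq promoter windows (GRCm38.p6, 250 bases before to 50 after the start site) were matched for 47 of the 50 genes. No window was available for Actb, Cotl1 and Diap1, so those genes were not searched. The CArG box (CC, 6 bases of A or T, GG, both strands) occurred in 4 of these 47 genes, or 8.51%, and in 1.81% of all 27025 genes with a window. TATAAA, searched on both strands, occurred in 4 of the 47 genes, or 8.51%, and in 15.7% of all genes. The 4 stretches around a CArG box follow, from 5′ to 3′ on the strand of the gene, with the box in capitals, because their genes differ in how they stood in AML cells.
Actg1 (chr11:120348536-120348625, minus strand): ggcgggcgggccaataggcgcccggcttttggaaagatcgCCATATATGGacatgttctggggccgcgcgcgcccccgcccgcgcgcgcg
Myl6 (chr10:128493010-128493099, minus strand): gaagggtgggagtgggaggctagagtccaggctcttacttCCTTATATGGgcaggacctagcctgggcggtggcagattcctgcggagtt
Vcl (chr14:20929148-20929220, plus strand): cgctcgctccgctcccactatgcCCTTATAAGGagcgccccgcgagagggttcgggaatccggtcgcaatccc
Arpc4 (chr6:113377863-113377912, plus strand): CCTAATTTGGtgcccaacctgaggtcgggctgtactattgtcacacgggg

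The box begins 90 bases before the start site in Actg1, 50 in Myl6, 227 in Vcl and 250 in Arpc4. Of these genes Actg1 was called lower, Arpc4 was lower without overlap, and Vcl and Myl6 overlapped between the groups. A match of letters is a description and shows neither binding nor its absence. Srf itself stood at 13.4, 12.9 and 10.46 RPKM in normal and 14.3 and 8.76 RPKM in AML cells and was not called (log2 fold change -0.11, SE 0.27, limma, Benjamini-Hochberg adjusted p = 0.78). Its cofactor Mkl1 stood at 47.0 ± 8.62 (SD, n = 3) RPKM and 62.0 ± 3.27 (SD, n = 2) RPKM, with both AML libraries above the normal ones (log2 fold change 0.40, SE 0.25, limma adjusted p = 0.25). Mkl2 was near 1 RPKM in every library, between 0.9 and 1.6 RPKM (limma adjusted p = 0.93).

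Further genes of actin control came from a list of 126 that holds none of the 50. Of these 125 were found and 107 tested. In AML cells 22 fell and 5 rose, or 20.6% and 4.67%, beside 11.8% and 19.3% of all tested genes, and their median log2 fold change was -0.28 beside 0.12. By role, 7 of 20 genes of filament turnover fell and 0 rose, Lima1 and Add3 among them. Not all roles are listed here. Of 9 kinases and phosphatases 3 fell and 2 rose, and of 18 nucleation and WAVE complex genes 2 fell and 1 rose. Of 13 adhesion and membrane linkers 3 fell, of 12 cross-linkers 1 fell and 1 rose, and of 6 myosins 1 fell. Without normal library 2 the counts were 5 lower and 0 higher, beside 640 lower and 955 higher of all 9933 genes tested there. Without normal library 3 they were 39 and 13, beside 2142 and 2757 of all 10110 genes tested there. Without AML library 2 the median log2 fold change of these other actin genes was -0.12, beside 0.18 over all tested genes.

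By the log2 fold change of RPKM + 1, the 6 largest falls among the called genes were those of Rhoc, Lima1, Tes, Ssh1, Add3 and Myo1d. Rhoc, a close relative of Rhoa, stood at 5.2, 7.7 and 12.3 RPKM in normal and 0.2 and 0.3 RPKM in AML cells, 33.6-fold lower (log2 fold change -2.84, SE 0.33, limma adjusted p = 0.0017). Lima1, which cross-links and stabilises filaments, stood at 4.5, 3.8 and 2.2 RPKM against 0.1 and 0.2 RPKM (log2 fold change -1.93, SE 0.27, limma adjusted p = 0.0031). At 1 decimal these AML values are coarse, and their folds are rough. Tes, a protein of adhesion sites, was 5.48-fold lower (limma adjusted p = 0.010), and Add3, which caps filaments at the membrane skeleton, 3.14-fold lower (limma adjusted p = 0.034). Ssh1, the phosphatase that activates cofilin, fell from 4.43 ± 2.50 (SD, n = 3) RPKM to 0.55 ± 0.354 (SD, n = 2) RPKM, with limma adjusted p = 0.023. Myo1d, an unconventional myosin, was 5.57-fold lower (limma adjusted p = 0.024). Calls of Rhoc and Lima1 were kept without each single library. Leaving out AML library 2 moved the limma adjusted p of Tes to 0.097, of Ssh1 to 0.17, of Myo1d to 0.17 and of Add3 to 0.23. All 4 calls were also lost without AML library 1, those of Ssh1, Myo1d and Add3 without normal library 2, and that of Add3 without normal library 1. With no filter the calls of Ssh1, Myo1d and Add3 were lost, with limma adjusted p of 0.059, 0.058 and 0.077.

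The 5 rises were those of Limk2, Rhoh, Fmnl3, Mical1 and Limk1. Limk1 and Limk2 encode the LIM kinases that inactivate cofilin. Limk2 stood at 11.7, 11.4 and 17.7 RPKM in normal and 26.4 and 34.6 RPKM in AML cells (log2 fold change 1.12, SE 0.28, limma adjusted p = 0.023), and Limk1 at 1.34 to 2.48 RPKM and 3.44 and 3.95 RPKM (log2 fold change 0.77, SE 0.24, limma adjusted p = 0.049). Rhoh rose from 2.43 ± 0.332 (SD, n = 3) RPKM to 5.63 ± 0.502 (SD, n = 2) RPKM, with limma adjusted p = 0.015. Fmnl3, a formin, was 1.94-fold higher (limma adjusted p = 0.017) and Mical1, an enzyme that oxidises and takes apart filaments, 1.91-fold higher (limma adjusted p = 0.031). In all 5 genes both AML libraries lay above all normal ones. All 5 calls were lost without AML library 1, AML library 2 or normal library 2, and without normal library 1 for all but Limk1. With no filter on low values the limma adjusted p of Limk1 was 0.082 and that of Mical1 0.052, with S100a8 and S100a9 left out of the scaling those of Limk1, Mical1 and Fmnl3 were 0.16, 0.067 and 0.061, and Limk1 and Mical1 were not called with upper quartile scaling or with trends removed. Limk1 was also not called with a pseudocount of 0.1 (limma adjusted p = 0.056), with values rounded to 1 decimal or without the variance trend.

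The Rac genes did not pass. Rac2, the Rac of blood cells, stood at 554, 536 and 789 RPKM in normal and 952 and 753 RPKM in AML cells, with overlap (log2 fold change 0.46, SE 0.30, limma adjusted p = 0.28). Rac1, its widely expressed relative, stood at 169, 170 and 156 RPKM in normal and 145 and 97.5 RPKM in AML cells, without overlap (log2 fold change -0.47, SE 0.26, limma adjusted p = 0.21).

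**Figure D4:**
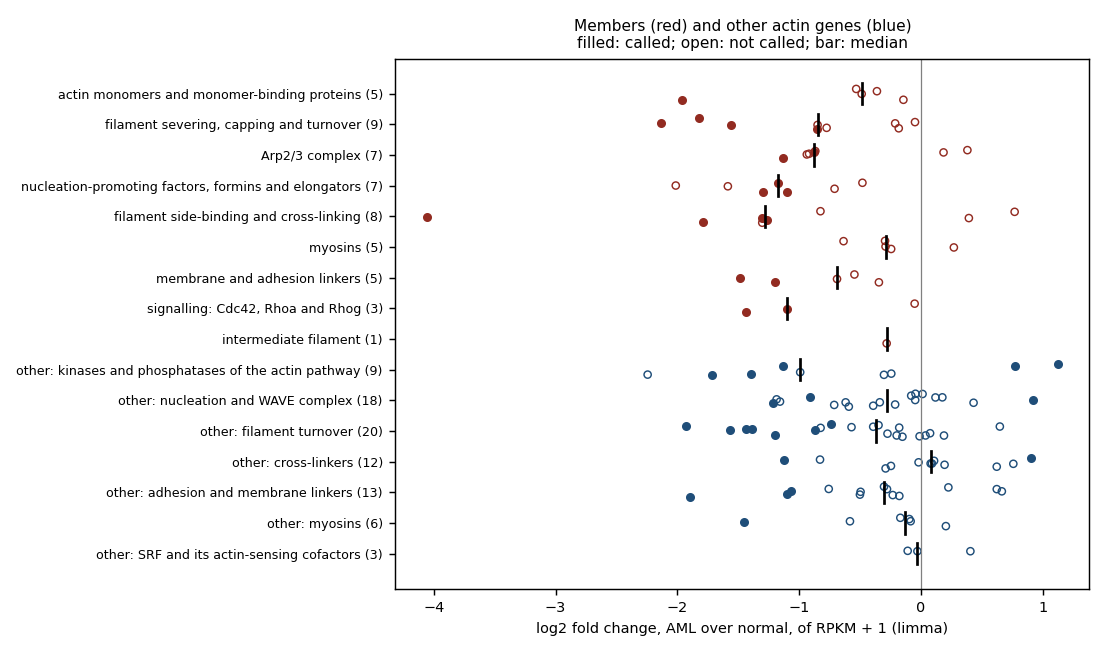
Log2 fold change (AML over normal, of RPKM + 1, limma) of each of the 50 members (red) and other tested actin genes of 7 of the 8 roles (blue), by role, with the number of genes in parentheses. Filled points are called, open points are not, and a bar marks the median of a role. The member farthest left is Tpm4 at -4.05, and the filled points right of 0 are Limk2, Fmnl3, Mical1 and Limk1. The role that holds Rhoc and Rhoh, and so the rise of Rhoh, is not plotted.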

How the data were processed

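Total RNA of sorted cells was taken up in TRIzol LS and made into libraries with an Illumina TruSeq kit, per the labels' protocols. The deposited table gives 1 value per feature and library on build mm9, per the submitters' processing notes. Some of its rows hold 1 decimal and others 2, and among the members this went with the direction of the difference. All 43 members with 1 decimal had a lower mean in AML cells. Of the 7 with 2 decimals, 5 had a higher and 2 a lower mean. The same counts were not made over all features, so the pattern is not shown to be particular to the members. The labels used do not say how the decimals were set, and the cause was not tested. Its unit is not named, and the deposited values were read as RPKM from their range. The aligner, counter, strand setting and read depth are not given in the labels used, so no counting interval is given. Column totals were 472234, 529058 and 615921 RPKM in the normal and 524000 and 638584 RPKM in the AML libraries.

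Genes reaching 1 RPKM in 2 or more libraries (10166 of 34240) were fitted as log2(RPKM + 1) with limma 3.58.1 in R 4.3.3, with a variance trend and robust estimation, over 3 normal and 2 AML libraries. Tests were two-sided, with Benjamini-Hochberg adjusted p-values and a threshold of 0.05. The procedure was also run on simulated data with independent noise of the same spread for all genes and libraries. That simulation lacks the trends on transcript length and GC content seen here, so it does not show how the fit performs on these libraries. Replicates were numbered in accession order. Gene positions and coding sequences came from GENCODE M1 (mm9) and promoters from RefSeq (GRCm38.p6). The members, roles and lists were chosen with earlier results of these data known. All 50 members are named. Values in each library are given, per role, for the 2 with the largest log2 fold change and the 1 with the highest mean. Outside that rule they are also given for Tpm1, the member with both AML libraries above all normal ones. For other actin genes at most 6 called falls and 6 called rises are named, with Srf, Mkl1, Mkl2, Rac1 and Rac2. Alternatives were other pseudocounts, filters, scalings, rounding, variance settings and leaving out libraries.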

Additional observations from a re-analysis of the deposited data

How the results depend on the processing

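Among the 50 members 18 were called lower. This number was 7 with no filter on low values, 5 without normal libraries 1 and 2 together, 31 with length and GC trends removed (chosen after seeing the data), and 2 to 28 when 1 library was left out. Members called higher stayed at 0 when 1 library was left out. Members without overlap numbered 32 with all libraries and 33 to 43 when 1 library was left out. Leaving out a library cannot lower that count, so its range says nothing about stability. The share of all tested genes without overlap is not given for those fits. The median log2 fold change was -1.09 with S100a8 and S100a9 left out of the scaling and -0.99 to -0.61 when 1 library was left out. That scaling moved the median of all tested genes by -0.22 and gave 1267 higher and 1363 lower calls, or 48.2% higher against 62.1%, and 2 higher and 23 lower among the other actin genes (8% higher against 18.5%). Other actin genes called higher numbered 3 with no filter, 3 with upper quartile scaling, 3 with trends removed, 0 without normal libraries 1 and 2 together and 0 to 13 when 1 library was left out. Those called lower numbered 10 with no filter, 3 without normal libraries 1 and 2 together and 2 to 39 when 1 library was left out. Without normal libraries 1 and 2 together 864 of all genes were called higher and 471 lower, and leaving out 1 library gave 326 to 2757 and 348 to 2142. Removing the trends gave 54.3% higher among all calls and upper quartile scaling 54.5%. The log2 fold change of Mkl2 reversed to 0.024 under quantile normalization, 0.10 without normal library 1, 0.14 without AML library 2 and 0.27 with trends removed, and the log2 fold change of Srf to 0.21 without AML library 2 and 0.092 without normal libraries 1 and 2 together. Leaving out 1 library gave -0.20 to 0.14 for Mkl2 and -0.43 to 0.21 for Srf. The cause was not tested. No paired analysis was possible because the titles of the groups share fewer than 2 replicate numbers. Leaving out AML library 2 ended most member calls, and read depth is unknown.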

Other observations

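Smooth muscle actin, Acta2, was measured among the stromal markers and was singled out after its values were seen. It stood at 36.9, 36.4 and 15.4 RPKM in normal and 1.90 and 2.60 RPKM in AML cells and was called lower. Of the other markers on that list, Cxcl12 also lay lower in AML cells, at 2.0, 0.7 and 0.3 RPKM in normal and 0 in both AML libraries. Pecam1 overlapped at 2.36 to 4.08 RPKM over all libraries. Col1a1, Col1a2, Col3a1, Pdgfrb and Cdh5 did not exceed 0.3 RPKM in any library. Which cells held the Acta2 RNA was not tested.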
